A study of Homo sapiens with 9 samples.

Results

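The genes of transforming growth factor beta (TGF-beta) signalling were followed by RNA sequencing in MDA-MB-231 cells, an established line of triple-negative breast cancer, after small interfering RNAs (siRNAs) against the long non-coding RNA MILIP. The set held 38 genes, taken by symbol from the 60612 genes of the deposited table. It comprised 4 ligands, 8 genes of latency, activation and extracellular inhibition, 7 receptors and co-receptors, 4 SMADs, 7 intracellular inhibitors and 8 target genes. All 38 symbols were found, and 36 genes had enough counts to be tested. POSTN, which encodes the matrix protein periostin, had 0 counts in all 9 libraries, which allows up to 0.198 CPM (counts per 1000000, on scaled library totals) if 3 counts in the shallowest library are taken as the limit of a count of 0. LDLRAD4, a membrane inhibitor of TGF-beta signalling, had 0 to 2 counts per library. NEDD9 had 3 to 6 counts in the control libraries and could be tested only through its higher counts in the siRNA libraries. Such limits cover counting error only.

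TGF-beta is secreted in a latent complex that LTBP proteins anchor in the matrix, and it has to be released before it can bind its receptors. The active ligand brings the type II receptor TGFBR2 and the type I receptor TGFBR1 together, and TGFBR1 then phosphorylates SMAD2 and SMAD3, which enter the nucleus with SMAD4. Activins, which are dimers of inhibin beta chains such as INHBA, signal through the same SMADs by way of their own type I receptor ACVR1B. SMAD7, SKIL and PMEPA1 are both targets and inhibitors of the pathway, and in breast cancer lines with mesenchymal traits TGF-beta is known for driving matrix and cytoskeletal genes.

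Lipofectamine was used to transfect 1 control siRNA and 2 different siRNAs against MILIP, called siRNA1 and siRNA2 here, and 3 libraries per group were made 48 hours later. All groups are of the same line, and no label ties a library to a culture of its own. The p-values therefore reflect the scatter among 3 libraries of a group, part or all of which may be technical. Both siRNA groups were compared with the same 3 control libraries.

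Libraries held 15281220 to 19759371 counts, and 3 counts corresponded to 0.152 to 0.198 CPM. MILIP (listed as MAFG-DT) was at 8.41 ± 0.254 CPM in the control libraries (mean ± SD, n = 3 here and below), 1.24 ± 0.641 CPM with siRNA1 and 0.616 ± 0.316 CPM with siRNA2, that is 14.7% and 7.32% of control. No siRNA library overlapped the controls, and the exact two-sided permutation p was 0.1 for each siRNA, the smallest that 3 against 3 libraries allow. A protocol text of the series names siRNAs against another RNA, PLANE (MELTF-AS1); that gene was at 2.39 ± 0.811, 2.88 ± 0.361 and 2.06 ± 0.349 CPM in the 3 groups and was not called for either siRNA (edgeR adjusted p = 0.392 and 0.469). Of the 6 mesenchymal markers of the line, VIM was at 4073 to 4780 CPM in the group means, while AXL, at 1004 ± 34.7 CPM in control, was lower with both siRNAs, at 103 ± 3.92 and 273 ± 11.3 CPM, and the summed level was 7052 to 7468, 5442 to 5771 and 5612 to 5686 CPM in control, siRNA1 and siRNA2. EGFR and ZEB1 were also called lower with both siRNAs. CD44 and SNAI2 were called lower with siRNA1 but higher with siRNA2. CD44 was at 830 ± 49.2 CPM in control and 932 ± 31.1 CPM with siRNA2, and SNAI2 at 11.7 ± 0.592 and 16.8 ± 1.57 CPM. Of the 3 receptors by which a line is called triple-negative, ESR1 and PGR stayed under 1 CPM in every library, and ERBB2 was at 61.4 ± 2.58, 54.9 ± 4.16 and 72.1 ± 3.81 CPM. Markers of other cells were not constant. Of 8 fibroblast markers 4 (DCN, LUM, PDGFRA and FAP) were under 1 CPM in every library, while the summed level of the 8, most of it COL1A1, ran from 8.09 to 11.3 CPM in control, 48.7 to 57.7 CPM with siRNA1 and 70.0 to 73.2 CPM with siRNA2. PDGFRB of that list went from 1.23 ± 0.424 CPM to 7.57 ± 0.493 and 6.84 ± 0.538 CPM, and COL1A2 and COL3A1 had at most 1 count per library in control, at most 2 with siRNA1 and 21 to 44 with siRNA2. The 6 leukocyte markers summed to 2.04 to 3.11 CPM in control, 1.12 to 2.72 CPM with siRNA1 and 8.83 to 10.1 CPM with siRNA2, most of it CD14. The 8 epithelial markers summed to 1207 to 1390 CPM, 2139 to 2478 CPM and 1438 to 1479 CPM in the same order. With siRNA2 they did not move together: KRT8, KRT19, CLDN4 and CLDN7 were called higher, and KRT18 and EPCAM lower. KRT18 went from 500 ± 30.0 CPM in control to 390 ± 7.95 CPM with siRNA2, and EPCAM from 5.64 ± 0.652 to 3.35 ± 0.138 CPM. The part of these markers in the results below was not tested. In bulk RNA, fewer cells of a kind and less RNA per cell cannot be told apart.

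The sequences of the siRNAs are not given in the sources used here. As background, an siRNA can lower transcripts other than its target when their 3′ untranslated region (3′UTR) holds the 7 bases that match the seed of its guide strand. To show which TGF-beta genes carry such bases, every 7-base word of MILIP was looked up in the 3′UTRs of 12638 tested genes. Words carried by at least 100 genes were compared by the mean log2 fold change of carriers minus that of the other genes. The difference was scaled by the spread over genes and by the numbers of genes with and without the word. For each siRNA the word with the lowest scaled difference was kept. Both words were therefore picked on these same fold changes, out of 1533 compared, and carry no test. The siRNA1 word, AATTCCA, was in the 3′UTR of 2656 genes (21.0%), whose median log2 fold change with siRNA1 was -0.19 against 0.045 for genes without it. The siRNA2 word, GACCCTA, was in 959 genes (7.59%), with medians of -0.28 and 0.019 for siRNA2. The stretches below, from GENCODE transcripts of GRCh38 and written 5′ to 3′ with the word in capitals, show both words in MILIP and then 1 site in each tested TGF-beta gene that carries a word. The first pair is MILIP itself.
MILIP, chr17:81930344-81930372, plus strand: aagctggagtcagggcAATTCCAaccaag
MILIP, chr17:81930468-81930496, plus strand: gcattggtaacatagaGACCCTAtcgcta
The siRNA1 word stood in these 3′UTRs.
TGFBR2, chr3:30693634-30693662, plus strand: catagaggcgcctagaAATTCCActtgca
SMURF1, chr7:99030477-99030505, minus strand: ctggcagaggccctggAATTCCAgatcac
SMURF2, chr17:64551617-64551645, minus strand: aaggatttaatgaagtAATTCCAcaacat
TGFB1I1, chr16:31477842-31477870, plus strand: gggggagggtccttgcAATTCCAgcgaat
INHBA, chr7:41686683-41686711, minus strand: agaagcagagaaatgtAATTCCAtatttt
TGFBR3, chr1:91682294-91682322, minus strand: cccccaaacaacttagAATTCCAtaagta
SKIL, chr3:170393527-170393555, plus strand: ttttagaagataaaggAATTCCAtagttt
TGFBI, chr5:136046964-136046992, plus strand: cacctctatgtaccagAATTCCAacatcc
TPM1, chr15:63045085-63045113, plus strand: ttgggaagttggtaacAATTCCAagaatg
SMAD2, chr18:47812908-47812936, minus strand: gccagaacccagtttaAATTCCAtcctct
The siRNA2 word stood in these.
TGFB1, chr19:41330416-41330444, minus strand: ctgggtaacatagtgaGACCCTAtctcta
PMEPA1, chr20:57650844-57650872, minus strand: ggtaactgccgcactgGACCCTAggaagc

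Of the 36 tested genes 10 held the siRNA1 word in at least 1 coding transcript. TGFBR2, SMURF1, SMURF2 and TGFB1I1 were called lower with siRNA1, INHBA, TGFBR3, SKIL, TGFBI and TPM1 were called higher, and SMAD2 was not called. The site shown was in 2 of 2 coding transcripts with a 3′UTR for TGFBR2 and for SMURF1. It was in 2 of 3 for SMURF2 and 5 of 7 for TGFB1I1. INHBA had it in 1 of 3, TGFBR3 in 2 of 6, SKIL in 1 of 5 and TGFBI in 1 of 7. TPM1 had it in 1 of 23 and SMAD2 in 1 of 5. Second sites, not shown, were in 1 of 3 for INHBA, 4 of 6 for TGFBR3 and 2 of 5 for SMAD2. Which transcripts these cells make was not tested. TGFB1 and PMEPA1, the only tested genes of the set with the siRNA2 word, were both called higher with siRNA2. A match shows that the letters are present, not that a guide strand acted there.

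Promoters were compared for the letters that SMAD3 and SMAD4 bind. RefSeq promoters (GRCh38.p14, 250 bases before to 50 after a start) were found for 36 of the 38 genes, 80 promoters in all. The SMAD box CAGAC, on either strand, was in 44 of the 80 (55%) and in 45.3% of 35116 promoters. Genes with several starts, such as TGIF1, TGFBR1 and the untested LDLRAD4, count once per promoter. Windows of the same gene can overlap, so a box can be counted more than once. The palindrome GTCTAGAC was in 0 of the 80 and in 0.202% of all. The AP-1 word TGANTCA was in 8 of the 80 (10%) and in 7.71% of all; none of the 3 words contains another. The 250 bases before the deposited gene start are shown for the ligands TGFB2 and TGFB1 and for the type II receptor, 5′ to 3′ on the gene's strand, with CAGAC or its reverse complement in capitals.
TGFB2, chr1:218345086-218345335, plus strand: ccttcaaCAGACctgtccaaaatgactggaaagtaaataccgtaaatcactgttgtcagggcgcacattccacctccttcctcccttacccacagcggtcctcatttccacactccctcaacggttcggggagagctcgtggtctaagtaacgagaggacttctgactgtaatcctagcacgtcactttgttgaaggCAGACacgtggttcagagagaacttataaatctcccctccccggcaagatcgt
TGFB1, chr19:41353923-41354172, minus strand: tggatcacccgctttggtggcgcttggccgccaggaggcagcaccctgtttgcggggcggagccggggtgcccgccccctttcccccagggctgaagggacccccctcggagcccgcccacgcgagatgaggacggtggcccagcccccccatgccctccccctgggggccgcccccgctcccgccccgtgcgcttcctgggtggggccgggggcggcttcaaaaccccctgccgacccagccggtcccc
TGFBR2, chr3:30606351-30606600, plus strand: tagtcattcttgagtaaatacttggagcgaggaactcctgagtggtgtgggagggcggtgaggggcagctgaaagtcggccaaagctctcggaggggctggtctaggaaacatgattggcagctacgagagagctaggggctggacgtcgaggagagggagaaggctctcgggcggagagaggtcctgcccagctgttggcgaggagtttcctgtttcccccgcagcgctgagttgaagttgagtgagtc
TGFB2 had 2 such boxes, 243 and 53 bases before its start, and the stretches shown for TGFB1 and TGFBR2 had none. Other genes had a promoter ending at the deposited start too. Of these, LTBP1 had 2 boxes (85 and 61 bases before) and TGFB3 had 2 (245 and 133). THBS1 (108) and ACVR1 (74) had 1 each, and ACVR1B, ENG, FSTL3, NEDD9, SMURF2, TGFBI and VASN had none. A relation of the boxes to the changes below was not tested. No match says only that these letters are not in this window.

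Both siRNAs moved most of the 36 genes, and they did not move them alike. A gene was called when its edgeR quasi-likelihood p, adjusted by Benjamini-Hochberg over all 15345 tested genes, was below 0.05. With siRNA1, 15 genes were higher and 10 lower than control, so that 69.4% were called, against 50.4% of all tested genes (25.1% higher and 25.3% lower). With siRNA2, 25 were higher and 5 lower, 83.3% of the 36, against 56.1% of all tested genes (27.2% higher and 28.9% lower). The 5 lower genes were 3 with no low-count filter or without siRNA2 library 2. For siRNA1 the 10 lower genes were 7 without control library 1 or 2 and with limma. The median log2 fold change of the 36 was 0.18 with siRNA1, where that of all tested genes was 0.0032, and 0.66 with siRNA2, where that of all was -0.011. Changes of at least 2-fold were called higher for 8 genes and lower for 2 with siRNA1 (5.59% and 4.26% of all tested genes), and higher for 11 and lower for 0 with siRNA2 (6.06% and 4.82%). NEDD9 is in every count of higher genes in this paragraph, although it could be tested only through the libraries where it was high.

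The 2 siRNAs agreed in direction on 14 genes. Called higher with both were 12 genes, 33.3% of the 36 against 11.8% of all tested genes: INHBA, LTBP2, LTBP3, THBS1, FSTL3, VASN, TGFBR3, SKIL, PMEPA1, TGFBI, NEDD9 and TPM1. NEDD9 is among them although it could be tested only through the libraries where it was high. In the alternatives the 12 ran from 11, for instance without control library 3, to 15 without siRNA1 library 3. Called lower with both were SMURF2 and TGFB1I1, 5.56% against 11.1%; without control library 2, without siRNA2 library 2 or with no low-count filter SMURF2 alone was, and without control library 3 there were 3, ACVR1 being added. Another 8 genes, 22.2% against 9.93%, were called in opposite directions. TGFB2 and FST were higher with siRNA1 and lower with siRNA2, and LTBP1, TGFBR1, TGFBR2, SKI, SMURF1 and FN1 were lower with siRNA1 and higher with siRNA2. The siRNA1 calls of TGFBR1, SMURF1 and SKI were lost in some alternatives, which left 6 to 8 opposite genes. Compared directly, siRNA2 libraries had 19 genes higher and 11 lower than siRNA1 libraries, 83.3% called against 60.4% of all tested genes (28.4% higher and 32.0% lower). At least 2-fold differences between the siRNAs were called higher with siRNA2 for 8 genes and lower for 4 (7.55% and 7.34% of all tested genes). NEDD9 is among the 11 lower genes and among these 4. The libraries of the groups compared did not overlap for 27 of the 36 with siRNA1 against control, 30 with siRNA2 against control and 32 between the siRNAs, where the shares of all tested genes were 53.8%, 61.8% and 65.5%. The set was named with results of these data known, so these shares describe it and do not set it apart.

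**Figure D1:**
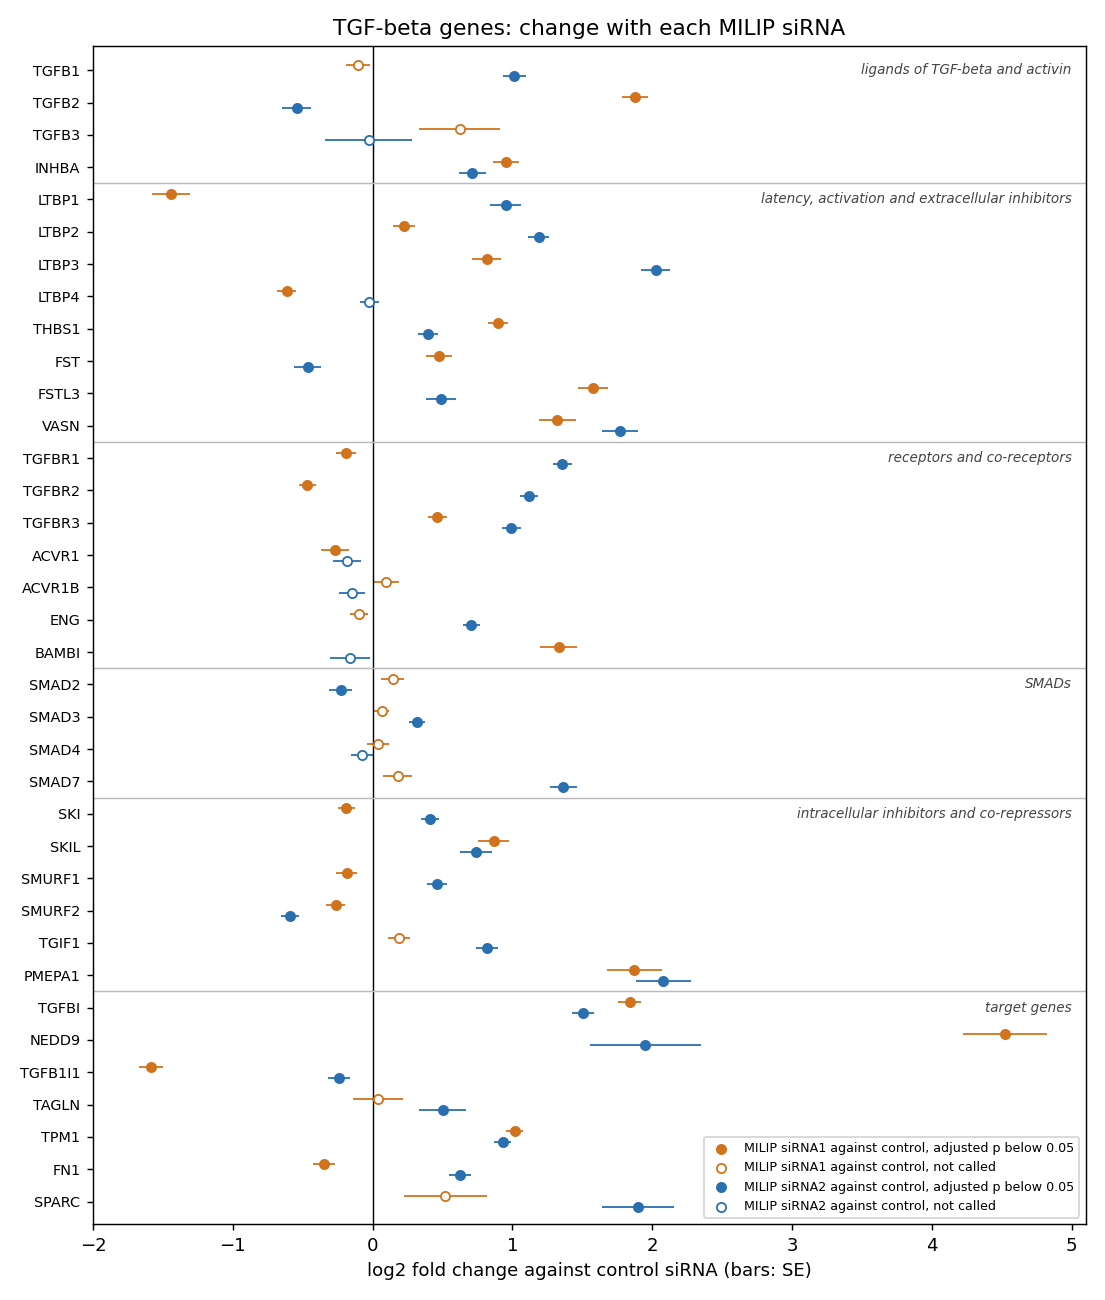
Log2 fold change against control siRNA of the 36 tested TGF-beta genes, by role, for MILIP siRNA1 and MILIP siRNA2; bars are standard errors from the edgeR fit of 3 libraries per group. TGFB2 lies at 1.88 with siRNA1 and -0.54 with siRNA2, while TGFBR1 and TGFBR2 lie below 0 with siRNA1 and above 1 with siRNA2. NEDD9 is plotted although it could be tested only through the libraries where it was high.

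Among the ligands, TGFB2 rose with siRNA1 and TGFB1 with siRNA2. TGFB2, 1 of the 3 TGF-beta isoforms, was at 20.1, 23.2 and 19.7 CPM in the control libraries, 73.6, 85.0 and 72.7 CPM with siRNA1 and 13.9, 13.0 and 16.4 CPM with siRNA2. All siRNA1 libraries lay above and all siRNA2 libraries below the controls. The log2 fold change was 1.88 ± 0.0933 (± SE throughout for fold changes; 3.68-fold higher, edgeR adjusted p = 1.98e-14) with siRNA1 and -0.54 ± 0.104 (edgeR adjusted p = 8.74e-05) with siRNA2. Directly compared, siRNA2 libraries were 5.36-fold lower than siRNA1 libraries (edgeR adjusted p = 1.1e-16). TGFB1, the isoform stored in platelets and made by many tumours, was at 49.1, 49.5 and 50.5 CPM in control, 51.3, 39.3 and 48.0 CPM with siRNA1 and 110.2, 95.9 and 95.3 CPM with siRNA2. Its siRNA1 libraries overlapped the controls (-0.11 ± 0.0859, edgeR adjusted p = 0.315), and its siRNA2 libraries lay above all others, 2.02-fold over control (1.01 ± 0.0830, edgeR adjusted p = 1.63e-10). TGFB1 shares its position with 4 genes on the opposite strand, and the sources used here do not say whether counting used the strand.

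TGFB3, the third isoform, was scarce, with 17 to 41 counts in any library. It stood at 1.23, 1.45 and 1.06 CPM in control, 1.84, 1.80 and 2.10 CPM with siRNA1 and 1.07, 1.57 and 0.990 CPM with siRNA2, and was not called in any of the 3 comparisons (edgeR adjusted p = 0.0801, 0.945 and 0.0527). Its siRNA1 libraries lay above all others. Between the siRNAs it was called without siRNA2 library 2 (edgeR adjusted p = 0.025) and by limma (adjusted p = 0.0215 and 0.0271). Against control, limma on log2(FPKM + 1) called it higher with siRNA1 (adjusted p = 0.0376). INHBA, whose dimer is activin A, was at 16.0, 14.3 and 14.6 CPM in control, 30.1, 30.1 and 26.8 CPM with siRNA1 and 26.5, 22.7 and 24.3 CPM with siRNA2. It rose 1.94-fold with siRNA1 (0.95 ± 0.0957, edgeR adjusted p = 8.54e-09) and 1.64-fold with siRNA2 (0.71 ± 0.0965, edgeR adjusted p = 7.96e-07), with no overlap of either group with control.

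Because FPKM (fragments per kilobase of exon and 1000000 counts) divides by the exonic length that the table gives, the isoforms can be added on that scale. The summed level of TGFB1, TGFB2 and TGFB3 was 18.9 ± 0.284 FPKM in control, 27.6 ± 0.751 FPKM with siRNA1 and 33.3 ± 2.10 FPKM with siRNA2. TGFB1 made up 80.5% ± 1.60 of that sum in control, 51.9% ± 5.47 with siRNA1 and 92.2% ± 1.08 with siRNA2. TGFB2 made up 18.2% ± 1.42, 46.7% ± 5.49 and 7.15% ± 1.12, its siRNA1 libraries ranging from 43.0% to 53.0%. The summed transcript level was thus above control in every siRNA library, with TGFB2 supplying the gain with siRNA1 and TGFB1 with siRNA2. These are transcript levels, and no protein or released ligand was measured.

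**Figure D2:**
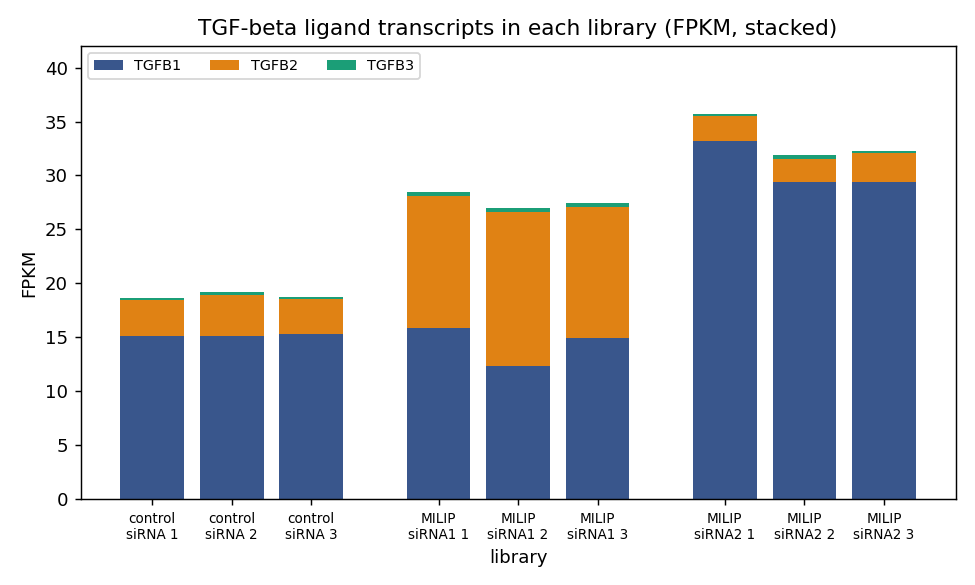
Stacked bars of the 3 TGF-beta isoforms in FPKM, 1 bar for each of the 9 libraries, grouped by siRNA. The sum is 18.9 FPKM in control and higher in every library of both MILIP siRNAs, with TGFB2 at 46.7% of it with siRNA1 and 7.15% with siRNA2.

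The genes of latency, activation and extracellular inhibition were nearly all called: 6 of 8 higher and 2 lower with siRNA1 (75% and 25%, against 25.1% and 25.3% of all tested genes), and 6 higher and 1 lower with siRNA2 (75% and 12.5%, against 27.2% and 28.9%). LTBP1, which tethers latent TGF-beta to the matrix, moved oppositely. It was at 12.4, 13.8 and 11.0 CPM in control, 4.88, 3.99 and 4.82 CPM with siRNA1 and 25.9, 21.5 and 24.5 CPM with siRNA2. No group overlapped another, and the fold changes were 2.72-fold lower with siRNA1 (-1.44 ± 0.135, edgeR adjusted p = 2.49e-09) and 1.93-fold higher with siRNA2 (0.95 ± 0.111, edgeR adjusted p = 7.13e-08). Between the siRNAs the difference was 5.25-fold (2.39 ± 0.126, edgeR adjusted p = 2.71e-14).

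LTBP3, another latent TGF-beta binding protein, rose with both siRNAs and more with siRNA2. Its libraries were at 23.5, 22.8 and 21.2 CPM in control, 39.8, 36.4 and 42.5 CPM with siRNA1 and 111, 81.0 and 83.0 CPM with siRNA2. The first siRNA2 library stood above the other two, and all 3 lay above every siRNA1 library. The increase was 1.76-fold with siRNA1 (0.82 ± 0.106, edgeR adjusted p = 5.63e-07) and 4.07-fold with siRNA2 (2.03 ± 0.103, edgeR adjusted p = 2.48e-14). LTBP2, which is a matrix protein of the same family and does not carry latent TGF-beta, was at 47.2, 49.3 and 39.6 CPM in control, 54.0, 55.5 and 49.5 CPM with siRNA1 and 103, 104 and 103 CPM with siRNA2. It rose 2.28-fold with siRNA2 (1.19 ± 0.0765, edgeR adjusted p = 2.06e-12). The siRNA1 increase was small (0.23 ± 0.0784, edgeR adjusted p = 0.019) and its adjusted p was 0.198 without control library 3, 0.084 without siRNA1 library 1 and 0.0585 without siRNA1 library 2. LTBP4, at 125 ± 5.55 CPM in control, fell to 81.5 ± 7.63 CPM with siRNA1 (-0.61 ± 0.0680, edgeR adjusted p = 4.47e-08) and was at 123 ± 1.82 CPM with siRNA2 (edgeR adjusted p = 0.796).

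The extracellular binders of activin split. FSTL3, a secreted glycoprotein that sequesters activin, was at 20.9, 22.4 and 26.7 CPM in control, 70.9, 61.1 and 76.9 CPM with siRNA1 and 36.1, 34.7 and 27.4 CPM with siRNA2. It rose 2.98-fold with siRNA1 (1.58 ± 0.106, edgeR adjusted p = 5.86e-12) and 1.40-fold with siRNA2 (0.49 ± 0.109, edgeR adjusted p = 0.000468), where the lowest siRNA2 library was just above the highest control. Follistatin (FST), its relative, was at 23.6 ± 1.11 CPM in control, 32.7 ± 0.874 CPM with siRNA1 and 17.1 ± 2.18 CPM with siRNA2. FST thus rose with siRNA1 (0.47 ± 0.0924, edgeR adjusted p = 0.00014) and fell with siRNA2 (-0.46 ± 0.0970, edgeR adjusted p = 0.000231). VASN, a membrane protein that is shed and binds TGF-beta, was at 7.10, 8.06 and 7.58 CPM in control, 20.8, 15.9 and 20.2 CPM with siRNA1 and 28.5, 21.7 and 27.4 CPM with siRNA2. All 6 siRNA libraries lay above the controls, by 2.50-fold with siRNA1 (1.32 ± 0.131, edgeR adjusted p = 6.55e-09) and 3.41-fold with siRNA2 (1.77 ± 0.127, edgeR adjusted p = 1.57e-11). VASN lies inside CORO7 on the opposite strand. Thrombospondin 1 (THBS1), which can release TGF-beta from its latent complex, rose from 333 ± 33.4 CPM to 621 ± 22.1 CPM with siRNA1 (0.90 ± 0.0709, edgeR adjusted p = 1.14e-10) and to 438 ± 43.4 CPM with siRNA2 (0.40 ± 0.0707, edgeR adjusted p = 3.42e-05).

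Both TGF-beta receptors were higher with siRNA2 than with siRNA1. TGFBR2, the type II receptor that binds the ligand first, was at 281, 292 and 239 CPM in control, 192, 203 and 192 CPM with siRNA1 and 589, 587 and 587 CPM with siRNA2. No group overlapped another: TGFBR2 fell 1.38-fold with siRNA1 (-0.47 ± 0.0634, edgeR adjusted p = 1.13e-06) and rose 2.17-fold with siRNA2 (1.12 ± 0.0630, edgeR adjusted p = 1.7e-13). TGFBR1, the signalling type I receptor, was at 58.5, 52.7 and 49.4 CPM in control, 46.9, 46.2 and 47.9 CPM with siRNA1 and 135, 134 and 143 CPM with siRNA2. With siRNA2 it rose 2.56-fold (1.36 ± 0.0691, edgeR adjusted p = 2.73e-14). Its siRNA1 libraries were below all controls, but by 1.14-fold only (-0.19 ± 0.0717, edgeR adjusted p = 0.0323), and that call was lost in 9 alternative analyses, with adjusted p from 0.05 to 0.203; among them were leaving out control library 1 (0.203), control library 2 (0.0514), siRNA1 library 2 (0.0611) and siRNA1 library 3 (0.0538). The siRNA2 libraries exceeded the siRNA1 libraries 3.00-fold for TGFBR2 (1.59 ± 0.0639, edgeR adjusted p = 1.47e-16) and 2.92-fold for TGFBR1 (1.54 ± 0.0694, edgeR adjusted p = 1.18e-15).

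The type I receptors ACVR1 and ACVR1B differed from control by at most 1.2-fold. ACVR1, a type I receptor for BMPs and activins, was at 30.6, 30.0 and 24.8 CPM in control, 25.2, 20.8 and 24.9 CPM with siRNA1 and 26.1, 22.8 and 26.2 CPM with siRNA2. It was called lower with siRNA1 (-0.27 ± 0.10, edgeR adjusted p = 0.0297) although the groups overlapped, and 5 alternatives lost the call, among them leaving out control library 1 (adjusted p = 0.119), control library 2 (0.113) or siRNA1 library 2 (0.14). With siRNA2 it was not called (-0.18 ± 0.0996, edgeR adjusted p = 0.121), but without control library 3 its adjusted p was 0.0206. ACVR1B, the activin type I receptor, was at 19.6, 20.6 and 20.3 CPM in control, 20.8, 22.8 and 20.9 CPM with siRNA1 and 17.1, 19.6 and 17.8 CPM with siRNA2. Neither siRNA gave a call for it against control (edgeR adjusted p = 0.428 and 0.189).

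Among the co-receptors, betaglycan (TGFBR3), which presents TGFB2 to the type II receptor, rose with both siRNAs. Its level of 78.5 ± 6.85 CPM in control became 108 ± 8.54 CPM with siRNA1 (0.46 ± 0.0702, edgeR adjusted p = 5.54e-06) and 156 ± 0.917 CPM with siRNA2 (0.99 ± 0.0697, edgeR adjusted p = 1.02e-11). Endoglin (ENG), a co-receptor best known from endothelium, was at 152 ± 9.27 CPM in control and 142 ± 4.75 CPM with siRNA1 (not called, edgeR adjusted p = 0.194), and rose to 247 ± 12.5 CPM with siRNA2 (0.70 ± 0.0609, edgeR adjusted p = 4.33e-10). The 5 endothelial markers looked at (PECAM1, CDH5, VWF, KDR and TEK) summed to 8.78 to 11.1 CPM in control, 5.78 to 7.16 CPM with siRNA1 and 18.4 to 20.5 CPM with siRNA2, and 3 of them were under 1 CPM in every library; their part in the ENG value was not tested. BAMBI, a decoy receptor without a kinase domain, went the other way: 5.80, 5.75 and 5.70 CPM in control, 15.2, 14.6 and 13.7 CPM with siRNA1 and 6.14, 4.77 and 4.48 CPM with siRNA2. It rose 2.51-fold with siRNA1 (1.33 ± 0.130, edgeR adjusted p = 5.31e-09), and its siRNA2 libraries overlapped the controls (-0.16 ± 0.146, edgeR adjusted p = 0.364).

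**Figure D3:**
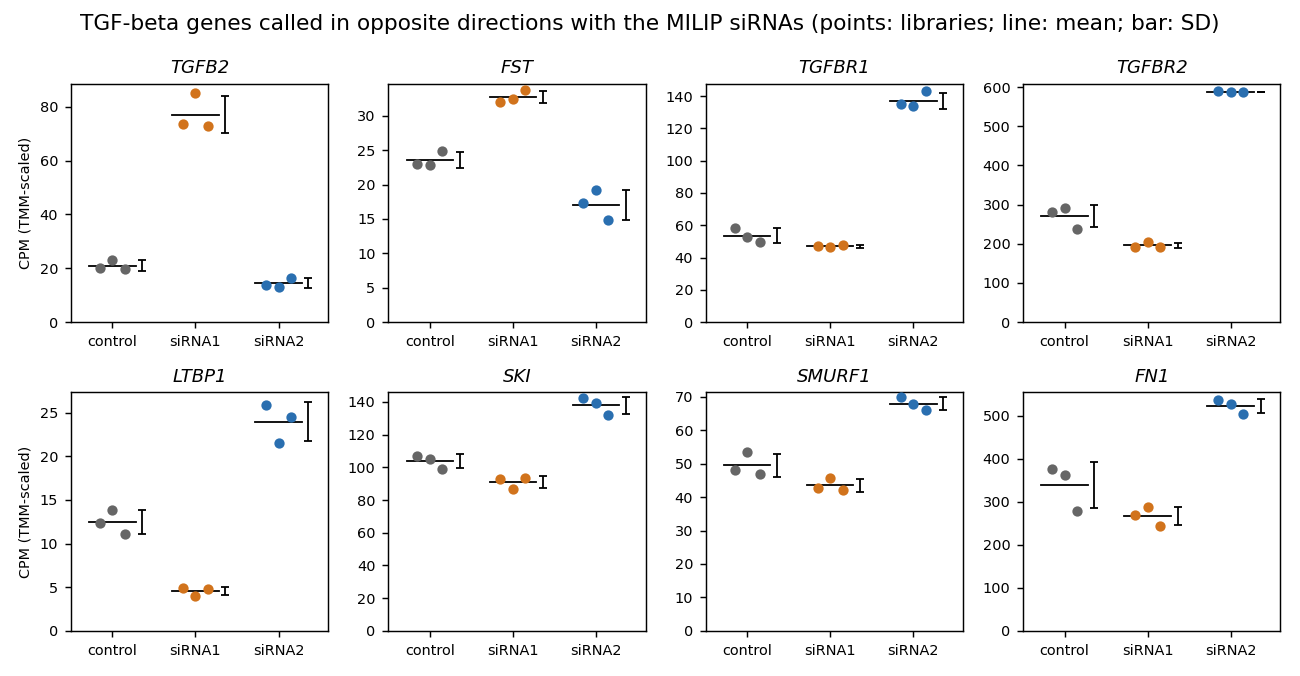
CPM of the 8 TGF-beta genes called in opposite directions by the MILIP siRNAs; points are the 3 libraries of each group, lines the mean and bars the SD. TGFB2 and FST are higher with siRNA1 and lower with siRNA2 than control, and the other 6 are lower with siRNA1 and higher with siRNA2.

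Against control, SMAD2, SMAD3 and SMAD4 differed by at most 1.25-fold with either siRNA. With siRNA1, 0 of the 4 SMADs were called by edgeR, DESeq2 or limma, and 0 had an unadjusted p under 0.05 in any of them. SMAD2, which TGFBR1 phosphorylates, was at 41.3, 33.9 and 38.4 CPM in control, 41.5, 43.5 and 40.5 CPM with siRNA1 and 31.2, 31.7 and 34.1 CPM with siRNA2. The control and siRNA2 ranges overlapped, and although SMAD2 was called lower with siRNA2 (-0.23 ± 0.0829, edgeR adjusted p = 0.0212), 7 alternatives lost the call, with adjusted p up to 0.212; leaving out control library 1 (0.195), siRNA2 library 1 (0.0802) or siRNA2 library 2 (0.0726) was enough. SMAD3, its partner, was at 164, 170.2 and 165 CPM in control, 173, 173 and 176 CPM with siRNA1 and 202, 211 and 208 CPM with siRNA2. SMAD3 rose 1.25-fold with siRNA2 (0.32 ± 0.0543, edgeR adjusted p = 2.06e-05), and with siRNA1 it was not called (0.066 ± 0.0545, edgeR adjusted p = 0.333). SMAD4, the shared partner, was at 28.7, 29.1 and 27.6 CPM in control, 28.8, 30.5 and 28.2 CPM with siRNA1 and 26.4, 27.4 and 27.1 CPM with siRNA2, with no call in either comparison (edgeR adjusted p = 0.732 and 0.44).

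SMAD7, the inhibitory SMAD that TGF-beta itself induces, differed from the rest. It was at 19.9, 19.5 and 19.0 CPM in control, 24.9, 22.3 and 19.2 CPM with siRNA1 and 53.5, 53.0 and 44.0 CPM with siRNA2. All siRNA2 libraries lay above all others, 2.57-fold over control (1.36 ± 0.0979, edgeR adjusted p = 1.49e-11). The siRNA1 libraries overlapped the controls (0.18 ± 0.103, edgeR adjusted p = 0.156), and without siRNA1 library 3 the adjusted p was 0.0408.

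The intracellular inhibitors and co-repressors were mostly called higher with siRNA2, 5 of 6 tested (83.3%, against 27.2% of all tested genes). With siRNA1 2 were higher and 3 lower (33.3% and 50%, against 25.1% and 25.3%). PMEPA1, a membrane protein that keeps SMAD2 and SMAD3 from the receptor and is a TGF-beta target, was at 2.90, 3.17 and 2.17 CPM in control, 10.3, 7.36 and 12.3 CPM with siRNA1 and 13.9, 10.6 and 10.2 CPM with siRNA2. All 6 siRNA libraries were above control, 3.66-fold with siRNA1 (1.87 ± 0.197, edgeR adjusted p = 2e-08) and 4.23-fold with siRNA2 (2.08 ± 0.194, edgeR adjusted p = 1.57e-09). SKIL (SnoN), a co-repressor that TGF-beta induces, rose from 13.9 ± 2.04 CPM to 25.3 ± 3.14 CPM with siRNA1 (0.87 ± 0.113, edgeR adjusted p = 5.8e-07) and 23.2 ± 1.33 CPM with siRNA2 (0.74 ± 0.113, edgeR adjusted p = 4.49e-06).

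SKI, the related co-repressor, was at 104 ± 4.4 CPM in control, 91.0 ± 3.50 CPM with siRNA1 and 138 ± 5.19 CPM with siRNA2. It was called lower with siRNA1 (-0.19 ± 0.0623, edgeR adjusted p = 0.014; 0.0526 without control library 1) and higher with siRNA2 (0.41 ± 0.0614, edgeR adjusted p = 3.42e-06). TGIF1, a homeobox co-repressor, rose from 29.1 ± 0.363 CPM to 51.2 ± 2.31 CPM with siRNA2 (0.82 ± 0.0782, edgeR adjusted p = 2.59e-09). With siRNA1 its adjusted p was 0.0529 at 33.2 ± 2.37 CPM, and 3 alternatives, among them leaving out siRNA1 library 3 (0.0343), called it.

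The 2 SMURF ubiquitin ligases, which send receptors and SMADs to degradation, did not move together. SMURF2 fell with both siRNAs, its level going from 219 ± 16.8 CPM to 182 ± 10.6 CPM with siRNA1 (-0.27 ± 0.0647, edgeR adjusted p = 0.00136) and 145 ± 7.57 CPM with siRNA2 (-0.59 ± 0.0651, edgeR adjusted p = 2.88e-08). SMURF1 was at 49.5 ± 3.48 CPM in control and rose to 67.9 ± 1.90 CPM with siRNA2 (0.46 ± 0.0718, edgeR adjusted p = 6.58e-06). At 43.5 ± 1.99 CPM with siRNA1 it was called lower (-0.19 ± 0.0736, edgeR adjusted p = 0.0382), but 8 alternatives lost that call, with adjusted p from 0.0551 to 0.2; among them were leaving out control library 2 (0.2), siRNA1 library 1 (0.071) and siRNA1 library 3 (0.134).

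The target genes TGFBI and TPM1 rose with both siRNAs. TGFBI, a secreted matrix protein named for its induction by TGF-beta, was at 16.1, 16.2 and 15.7 CPM in control, 60.2, 58.1 and 53.7 CPM with siRNA1 and 45.2, 46.6 and 44.5 CPM with siRNA2. All siRNA libraries stood above control, 3.58-fold with siRNA1 (1.84 ± 0.0803, edgeR adjusted p = 1.47e-15) and 2.84-fold with siRNA2 (1.50 ± 0.0809, edgeR adjusted p = 7.17e-14), and siRNA1 libraries stood above siRNA2 libraries. NEDD9, a focal adhesion scaffold, had 4, 6 and 3 counts in the control libraries, 105, 111 and 121 counts with siRNA1 and 25, 18 and 16 counts with siRNA2. No siRNA library overlapped the controls, and the counts with siRNA1 were the highest. Since NEDD9 could be tested only because of the libraries where it was high, no p is given for it against control. TPM1, a tropomyosin of the actin cytoskeleton, was at 64.2, 68.7 and 69.1 CPM in control, 131, 139.9 and 137 CPM with siRNA1 and 127, 132 and 125 CPM with siRNA2. It rose 2.02-fold with siRNA1 (1.02 ± 0.0618, edgeR adjusted p = 9.04e-13) and 1.91-fold with siRNA2 (0.93 ± 0.0618, edgeR adjusted p = 3.59e-12), and the siRNA groups overlapped each other (-0.087 ± 0.0595, edgeR adjusted p = 0.216).

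**Figure D4:**
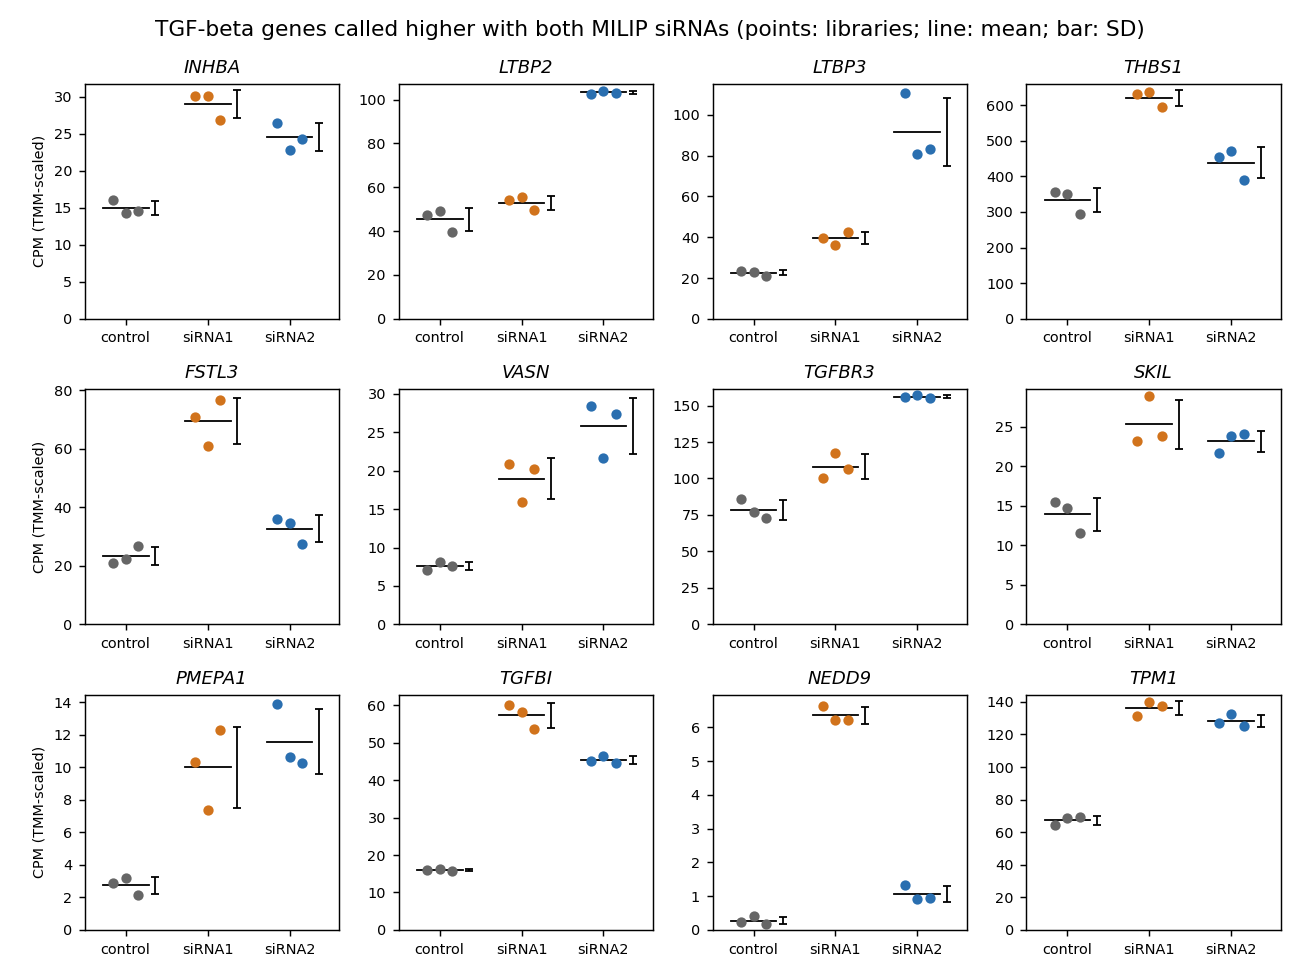
CPM of the 12 TGF-beta genes called higher by both MILIP siRNAs; points are the 3 libraries of each group, lines the mean and bars the SD. TGFBI, PMEPA1 and TPM1 are above control in all 6 siRNA libraries. NEDD9 could be tested only through the libraries where it was high.

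The other targets did not follow that pattern. TGFB1I1 (Hic-5), a focal adhesion protein, was at 40.3, 42.5 and 38.8 CPM in control, 14.2, 13.3 and 13.0 CPM with siRNA1 and 35.0, 33.5 and 34.5 CPM with siRNA2. It fell 3.00-fold with siRNA1 (-1.59 ± 0.0860, edgeR adjusted p = 1.04e-13). The siRNA2 libraries were also below all controls, by 1.18-fold (-0.24 ± 0.0784, edgeR adjusted p = 0.0119), a call lost with no low-count filter (0.072), without control library 2 (0.0574) and without siRNA2 library 2 (0.0538). SPARC, a matrix glycoprotein, was at 1.17, 1.19 and 1.06 CPM in control, 2.28, 1.63 and 1.08 CPM with siRNA1 and 3.84, 4.32 and 4.66 CPM with siRNA2. It rose 3.73-fold with siRNA2 (1.90 ± 0.257, edgeR adjusted p = 7.75e-07), and its siRNA1 libraries spread from the control level upward (0.52 ± 0.295, edgeR adjusted p = 0.15; 0.0389 without siRNA1 library 3).

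Fibronectin (FN1), a matrix protein often used as a TGF-beta readout, was at 339 ± 53.5 CPM in control, 266 ± 21.4 CPM with siRNA1 and 523 ± 16.8 CPM with siRNA2. It was called lower with siRNA1, where the groups overlapped (-0.35 ± 0.0806, edgeR adjusted p = 0.000851), and higher with siRNA2 (0.62 ± 0.0801, edgeR adjusted p = 3.41e-07). TAGLN, an actin-binding protein of smooth muscle, was at 3.66 ± 0.142 CPM in control and 3.75 ± 0.461 CPM with siRNA1 (not called, edgeR adjusted p = 0.875). It was called higher with siRNA2, at 5.18 ± 0.533 CPM (0.50 ± 0.169, edgeR adjusted p = 0.0142), but not by DESeq2 (0.0511) or without siRNA2 library 2 (0.0679).

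A wider list of 72 other pathway genes held 59 that could be tested. With siRNA1, 19 were higher and 17 lower (32.2% and 28.8%, against 25.1% and 25.3% of all tested genes). With siRNA2, 32 were higher and 16 lower (54.2% and 27.1%, against 27.2% and 28.9%). The list had median log2 fold changes of -0.0077 and 0.45. Both siRNAs raised 17 of them and lowered 7, and 9 went opposite ways (28.8%, 11.9% and 15.3% of the 59, against 11.8%, 11.1% and 9.93% of all tested genes). In ligand production and activation all 7 tested genes were called with each siRNA, where 50.4% and 56.1% of all tested genes were. INHBB, the chain of activin B, rose from 2.50 ± 0.249 CPM to 37.9 ± 2.33 CPM with siRNA1 (3.92 ± 0.134, edgeR adjusted p = 1.77e-17) and fell to 1.50 ± 0.377 CPM with siRNA2 (-0.73 ± 0.209, edgeR adjusted p = 0.00451). MMP14, a membrane protease that can release latent TGF-beta, at 825 ± 17.8 CPM in control, fell to 193 ± 10.5 CPM with siRNA1 (-2.10 ± 0.0646, edgeR adjusted p = 2.21e-18) and rose to 1713 ± 172 CPM with siRNA2 (1.05 ± 0.0618, edgeR adjusted p = 3.69e-13). INHBB thus went with TGFB2, and MMP14 with LTBP1 and the receptors. GDF11, a ligand of the activin branch, fell with both, from 13.9 ± 0.101 CPM to 8.58 ± 1.02 and 3.64 ± 0.349 CPM. ITGB6, a chain of an integrin that activates latent TGF-beta, was called higher with both at 14 to 47 counts per library; with siRNA2 the call was lost by DESeq2 (adjusted p = 0.0621), without control library 3 (0.0825) and without siRNA2 library 2 (0.0926).

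Of the other receptors 5 were tested, of which 1 was higher and 1 lower with siRNA1, and 4 higher and 1 lower with siRNA2 (against 25.1% and 25.3%, and 27.2% and 28.9%, of all tested genes). The 1 lower with siRNA2 was BMPR1B, a BMP type I receptor, named here after its values were seen; it had 15, 16 and 18 counts in control, 20, 24 and 28 counts with siRNA1 and 1, 5 and 2 counts with siRNA2. ACVR2B, an activin type II receptor, was at 11.2 ± 0.968 CPM in control and rose 2.01-fold with siRNA1 (1.01 ± 0.108, edgeR adjusted p = 2.58e-08) and 1.67-fold with siRNA2 (0.74 ± 0.109, edgeR adjusted p = 2.58e-06). BMPR2, the BMP type II receptor, rose from 43.2 ± 8.92 CPM to 77.6 ± 2.92 CPM with siRNA2 (0.85 ± 0.106, edgeR adjusted p = 2.3e-07). Its call as lower with siRNA1, at 34.5 ± 4.41 CPM (-0.32 ± 0.111, edgeR adjusted p = 0.0192), was lost without control library 1 (0.0964), control library 2 (0.155) or siRNA1 library 3 (0.124), and the groups overlapped.

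Among SMADs and their regulators 3 of 21 tested were higher and 7 lower with siRNA1, and 6 higher and 7 lower with siRNA2. In all 47.6% and 61.9% were called, near the 50.4% and 56.1% of all tested genes. SMAD6, the inhibitory SMAD of the BMP branch, rose from 29.6 ± 1.31 CPM to 88.7 ± 1.63 CPM with siRNA1 (1.58 ± 0.0764, edgeR adjusted p = 1.09e-14) and 49.4 ± 4.43 CPM with siRNA2 (0.74 ± 0.0777, edgeR adjusted p = 1.25e-08). SMAD6 was thus higher with siRNA1 than with siRNA2 (-0.84 ± 0.0724 for siRNA2 against siRNA1, edgeR adjusted p = 2.73e-10), while SMAD7 was higher with siRNA2 (1.18 ± 0.0958, edgeR adjusted p = 9.18e-11). TGIF2, a co-repressor related to TGIF1, fell from 33.2 ± 1.54 CPM to 16.9 ± 1.23 and 23.3 ± 0.932 CPM. PPM1A, a phosphatase acting on SMADs, at 43.7 ± 3.68 CPM in control, fell to 30.2 ± 0.849 CPM with siRNA1 and rose to 52.7 ± 2.63 CPM with siRNA2. NEDD4L, a ubiquitin ligase, fell from 128 ± 9.10 CPM to 70.7 ± 1.59 CPM with siRNA2 (-0.85 ± 0.0653, edgeR adjusted p = 4.77e-11); its siRNA1 call (-0.16 ± 0.0639, edgeR adjusted p = 0.0372) was lost in 9 alternatives, among them leaving out control library 1 (0.203), control library 2 (0.0659), siRNA1 library 1 (0.0518) and siRNA1 library 3 (0.154).

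Of 26 other target genes tested, 11 were higher and 6 lower with siRNA1 (42.3% and 23.1%, against 25.1% and 25.3% of all tested genes). With siRNA2 18 were higher and 5 lower (69.2% and 19.2%, against 27.2% and 28.9%). CCN2 (connective tissue growth factor), a widely used target, was at 175 ± 2.79, 174 ± 11.1 and 151 ± 10.1 CPM. It was not called with siRNA1 (edgeR adjusted p = 0.875) and called slightly lower with siRNA2 (-0.21 ± 0.0626, edgeR adjusted p = 0.00571; 0.0605 without siRNA2 library 3). COL1A1, a collagen chain, rose from 8.25 ± 1.24 CPM to 45.1 ± 3.99 CPM with siRNA1 (2.45 ± 0.102, edgeR adjusted p = 6.77e-16) and 61.3 ± 2.22 CPM with siRNA2 (2.90 ± 0.101, edgeR adjusted p = 2.44e-17). COL1A1 is also in the fibroblast list, of which PDGFRB was higher with both siRNAs, COL1A2 and COL3A1 with siRNA2, and DCN, LUM, PDGFRA and FAP were under 1 CPM throughout; their part in the COL1A1 value was not tested. ANGPTL4, a secreted regulator of lipid uptake, rose from 2.66 ± 0.781 CPM to 13.2 ± 2.41 and 13.8 ± 1.06 CPM. BHLHE40, a transcriptional repressor, rose from 28.8 ± 3.36 CPM to 46.7 ± 1.21 and 138 ± 9.30 CPM. ID2, an inhibitor of helix-loop-helix factors, rose from 0.805 ± 0.106 CPM to 4.95 ± 0.580 and 1.94 ± 0.402 CPM.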

How the data were processed

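RNA of MDA-MB-231 cells from 3 siRNA groups (9 libraries, grouped by GEO's labels) was measured. The submitters' processing notes name Trimmomatic 0.30, HISAT2 2.0.1, HTSeq 0.6.1, DESeq and hg19, whereas 99.98% of 58394 identifiers overlap the same gene in GENCODE release 29 on GRCh38. The authors deposited raw counts per gene and FPKM, which equals counts per exonic length and 1000000 counts within 0.005 for 100% of values; depth was 15281220 to 19759371 counts. The deposited exonic lengths (bases, taken as another kind of value) entered only FPKM. CPM here uses TMM-scaled totals.

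Counts were fitted on all groups with edgeR 4.0.16 (R 4.3.3; filterByExpr, minimum count 10 and total 15; TMM; glmQLFit and glmQLFTest; 15345 genes kept, 99.9% of counts; common biological coefficient of variation 0.0641), two-sided, with Benjamini-Hochberg adjustment over all genes tested and calls below 0.05. The SE is the log2 fold change divided by the square root of F. Alternatives were median-of-ratios scaling, no low-count filter, a mean FPKM of at least 1, DESeq2 1.42.0, limma 3.58.1 on log2(FPKM + 1) and log2(FPKM + 0.1), a replicate block, 2 groups alone and leaving out each library. The fit was tested on simulated counts. The 2 scalings differed by at most 0.0245 on the log2 scale.

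The set and the other lists were chosen with earlier results of these data known. All 38 genes are accounted for, with every library's value for ligands, type I and II receptors, SMADs and called changes of at least 2-fold. Of each of 4 lists of other pathway genes, up to 4 called with both siRNAs and with the largest change are named, plus CCN2 and SMAD6; 1 further gene of that rule is not reported here. In GENCODE 22 of the 38 overlap opposite-strand genes and 11 overlap same-strand genes, and no source used here says whether counting was stranded.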

Additional observations from a re-analysis of the deposited data

Results flagged for a closer look

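Of the set, 8 genes were called in opposite directions by the 2 siRNAs against the same control libraries, and the difference between the siRNAs was tested in the same edgeR fit. The log2 difference, siRNA2 against siRNA1, was -2.42 for TGFB2 and -0.94 for FST, which were higher with siRNA1. It was 2.39 for LTBP1, 1.59 for TGFBR2, 1.54 for TGFBR1, 0.97 for FN1, 0.64 for SMURF1 and 0.60 for SKI, which were higher with siRNA2. For these genes the edgeR adjusted p of that difference ran from 1.1e-16 (TGFB2) to 2.91e-08 (SMURF1), and the siRNA1 and siRNA2 libraries did not overlap for any of them. Against control, the siRNA1 calls of TGFBR1 and SMURF1 were lost in 9 and 8 alternatives and that of SKI without control library 1 (edgeR adjusted p = 0.0526).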

How the results depend on the processing

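Against control, 25 of the 36 tested genes kept their direction and call with siRNA1 in every alternative that tested them, and 29 of 36 did with siRNA2. Between the siRNAs it was 30 of 36. NEDD9, at no more than 0.65 FPKM in any library, was not tested with a mean FPKM of at least 1. The count of genes lower with siRNA2, 5, was 3 with no low-count filter, and leaving out 1 library at a time gave 3 (without siRNA2 library 2) to 6; the cause was not tested. Values that changed sign were all uncalled. Leaving out 1 library at a time, the log2 values ran from -0.0616 to 0.0307 for CCN2, -0.0045 to 0.0615 for SMAD4 and -0.0696 to 0.1118 for TAGLN with siRNA1, and from -0.0377 to 0.0051 for LTBP4 and -0.2697 to 0.0926 for TGFB3 with siRNA2. Between the siRNAs they ran from -0.002 to 0.148 for ACVR1 and -0.0465 to 0.1969 for ANGPTL4. With no low-count filter the values of changed sign were LTBP4 (0.0063) and TGFB3 (0.0006) with siRNA2. With a mean FPKM of at least 1 they were CCN2 with siRNA1 (0.0054) and LTBP4 with siRNA2 (0.0116), and with limma CCN2 with siRNA1 (0.0105 and 0.0106). Between the siRNAs, the INHBA, ACVR1B and TAGLN calls were lost by DESeq2 (adjusted p = 0.0861, 0.11 and 0.0643). With no low-count filter INHBA and ACVR1B lost theirs too (edgeR adjusted p = 0.0939 and 0.132). INHBA also lost it without siRNA1 library 1 or 2 or siRNA2 library 2 or 3 (0.0601 to 0.131). ACVR1B lost it without siRNA1 library 1 or 2 or siRNA2 library 1 or 3 (0.0531 to 0.121). TAGLN lost it without siRNA1 library 2 (0.0764) or siRNA2 library 2 (0.0853).

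The deviations of same-numbered libraries from their group means had correlations of -0.0508 to 0.0969, and those of unlike-numbered libraries -0.135 to 0.139. No pairing by number was thus seen, and no label says what a number marks. With the number as a replicate block the counts were 15 higher and 10 lower with siRNA1, 25 and 5 with siRNA2, and 19 and 11 between the siRNAs, as without the block. Depth limits what can be said of POSTN and LDLRAD4, which could not be tested. It also limits NEDD9, TGFB3, SPARC and PMEPA1, which had under 50 counts in each control library.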
